A study of Mus musculus with 12 samples.

Results

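Fatty acid uptake, storage and oxidation were followed through 49 named genes in disc tissue of mice in which Opa1 was deleted; the tissue was the nucleus pulposus, the soft centre of each intervertebral disc. The genes were picked by name, as trimmed gene symbols, and all 49 were found once each among the 32285 genes of the count table. Bulk RNA sequencing compared 6 Opa1cKO mice with 6 WT mice, 1 library per mouse, all 12 months old and on a C57BL/6-129/SvEv background. In Opa1cKO mice Opa1 was deleted at 3 months of age by AcanCre, a tamoxifen-activated Cre recombinase made where aggrecan is expressed, as in disc and cartilage, and tissue was taken 9 months later. Both genotypes were given tamoxifen at 100 mg/kg on 3 days, and the labels name the controls WT without further alleles. By label, 2 Opa1cKO mice were female and 4 male, and 4 WT mice were female and 2 male. The tissue was dissected from tail discs, and total RNA (50 ng) went into a stranded, ribosomal-RNA-depleted library with 14 PCR cycles.

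Long-chain fatty acids enter cells with the help of CD36 and fatty acid transport proteins, are carried in the cytosol by fatty acid binding proteins and are activated to acyl-CoA by long-chain acyl-CoA synthetases. Carnitine palmitoyltransferase 1 (CPT1) on the outer mitochondrial membrane passes the acyl group to carnitine, and beta-oxidation in the matrix then shortens the chain, handing electrons to the respiratory chain through electron transfer flavoprotein. Surplus fatty acid is kept as triglyceride in lipid droplets. PPAR nuclear receptors sense fatty acids and switch on many of these genes. The nucleus pulposus has little blood supply and relies largely on glycolysis, and Opa1 encodes a GTPase that fuses inner mitochondrial membranes and shapes cristae.

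Totals per library lay between 37268242 and 56618266 counts. A level of 1 CPM (count scaled to library size with TMM factors) stood for 37.2 to 56.9 reads. Opa1 had 30.2, 40.8 and 47.7 CPM (lowest, median, highest) in Opa1cKO libraries, against 69.3, 108 and 118 CPM in WT libraries, with no overlap. Its log2 fold change was -1.22 (Opa1cKO over WT, SE 0.116, edgeR adjusted p = 3.05e-05). The notochord factor gene brachyury (T), which marks nucleus pulposus cells, had 2430 to 3190 CPM in Opa1cKO and 2350 to 3000 CPM in WT. Of 12 nucleus pulposus markers 10 were tested, and edgeR called 2 of them, Cdh2 and Sema3c, lower in Opa1cKO. Car12 and Noto were below the filter. All 12 summed to 27800 to 50000 CPM in Opa1cKO, the lowest in Opa1cKO 6, and 35200 to 47400 CPM in WT. Tendon and annulus markers summed to 1550 to 2470 CPM in Opa1cKO and 1300 to 1940 CPM in WT. Nerve markers summed to 28.8 to 43.4 CPM in Opa1cKO (median 37.5) and 24.9 to 32.8 CPM in WT (median 27.9), and edgeR called 0 in either list. Of 4 tested nerve markers 2 had an unadjusted edgeR p below 0.05, and DESeq2 called 1. Sex-linked reads contradicted the labelled sex of 4 libraries, Opa1cKO 4, WT 4, WT 5 and WT 6, and labelled sex was a term of the fit. Without Opa1cKO 6 the number of genes called fell to 819, against 1558 with all 12 libraries, and without WT 6 it was 973. In bulk tissue, fewer cells of a type and less RNA per cell cannot be told apart.

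Of the 49 genes, 45 passed the filter on low counts and were tested. In Opa1cKO 7 of them rose (Cpt1a, Cpt1b, Acadl, Ucp2, Cd36, Fabp3 and Angptl4) and 4 fell (Fabp5, Acsl4, Slc27a3 and Lpl), at an edgeR adjusted p below 0.05 with no minimum fold. That is 24.4% of those tested, against 10.2% called among all 15229 genes. By direction, 15.6% of the tested members were higher, where 5.1% of all genes were, and 8.89% were lower, where 5.13% of all genes were. For 8 members, 5 higher and 3 lower, or 17.8%, the Opa1cKO and WT ranges of CPM stayed apart, where 6.41% of all genes had ranges that did not overlap. The members were chosen with earlier results of these data known, so these shares describe the list and are not a test of it. The median log2 fold change was -0.05 over the 45 members and 0.01 over all genes tested. By role, 7 of 12 tested genes of uptake and activation, 2 of 6 of the carnitine shuttle, 1 of 14 of beta-oxidation and 1 tested uncoupling gene were called. Of the 12 tested electron transfer flavoprotein, PPAR receptor, peroxisomal, thioesterase and lipid droplet genes, 0 was called by edgeR, DESeq2 or limma-voom, and 2 had an unadjusted edgeR p below 0.05.

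**Figure D1:**
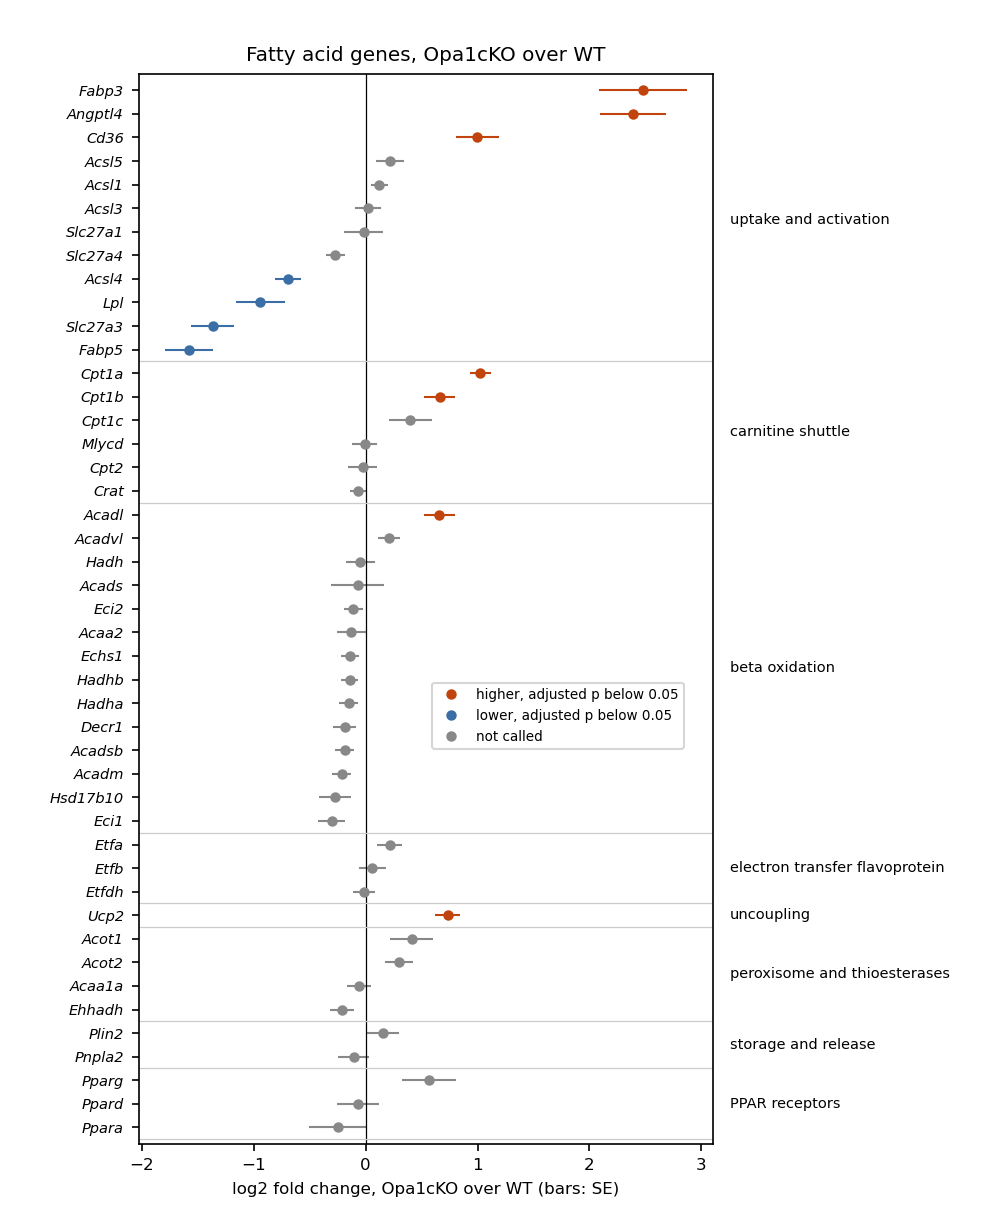
Log2 fold change of the 45 tested fatty acid genes, Opa1cKO over WT, with SE bars, grouped by role; colour marks the 7 genes called higher and the 4 called lower. The spread is widest in uptake and activation, from -1.58 (Fabp5) to 2.48 (Fabp3), and in beta-oxidation the values run from -0.30 (Eci1) to 0.66 (Acadl).

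In the carnitine shuttle, Cpt1a and Cpt1b rose in Opa1cKO and the other 4 genes were not called. Cpt1a (chromosome 19, 3322334 to 3385733, plus strand, mm10) encodes the isoform prominent in liver. It had 46.4, 50.5 and 60.6 CPM (lowest, median, highest) in Opa1cKO libraries, against 21.9, 25.0 and 28.5 CPM in WT libraries. Every Opa1cKO library lay above every WT library, and the difference was 1.02 on the log2 scale (SE 0.0928, edgeR adjusted p = 2e-05). Cpt1b, the isoform of muscle and heart (chromosome 15, 89416405 to 89425863, minus strand), had 18.4, 22.3 and 31.9 CPM in Opa1cKO, against 12.6, 14.7 and 17.5 CPM in WT. These ranges did not overlap either, and the log2 fold change was 0.66 (SE 0.137, edgeR adjusted p = 0.00848). All of the Cpt1b gene lies inside Gm44502, a longer annotated gene on the same strand. The count table has no row with that gene's symbol or identifier.

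Cpt1c, the isoform of neurons, stood at 0.40 on the log2 scale (SE 0.191) and did not pass (edgeR adjusted p = 0.212). On the TPM scale, which allows levels of different genes to be set side by side, the 3 isoforms summed to 69.8 to 84.4 TPM in Opa1cKO and 38.4 to 53.4 TPM in WT, with no overlap. Their proportions overlapped: Cpt1a made up 35.8 to 50.6% of the family in Opa1cKO and 27.9 to 39.4% in WT, and Cpt1b 34.7 to 50.3% in Opa1cKO and 40.2 to 46.8% in WT. Downstream steps of the shuttle were not called. Crat, which moves short acyl groups to and from carnitine and is the most abundant uncalled gene of the shuttle, had 45.1, 53.0 and 53.5 CPM in Opa1cKO, against 48.1, 52.7 and 55.8 CPM in WT. Its ranges overlapped, at -0.07 on the log2 scale (edgeR adjusted p = 0.596). Cpt2, which regenerates acyl-CoA inside the inner membrane, stood at -0.03 on the log2 scale (edgeR adjusted p = 0.922). Mlycd, which breaks down the CPT1 inhibitor malonyl-CoA, stood at -0.01 (edgeR adjusted p = 0.976). All 6 genes of the shuttle summed to 182 to 197 TPM in Opa1cKO and 149 to 163 TPM in WT, with no overlap. The mean of this sum was 189 TPM in Opa1cKO and 157 TPM in WT. Of that, the 3 CPT1 isoforms made up 77.5 TPM in Opa1cKO and 45.3 TPM in WT.

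**Figure D2:**
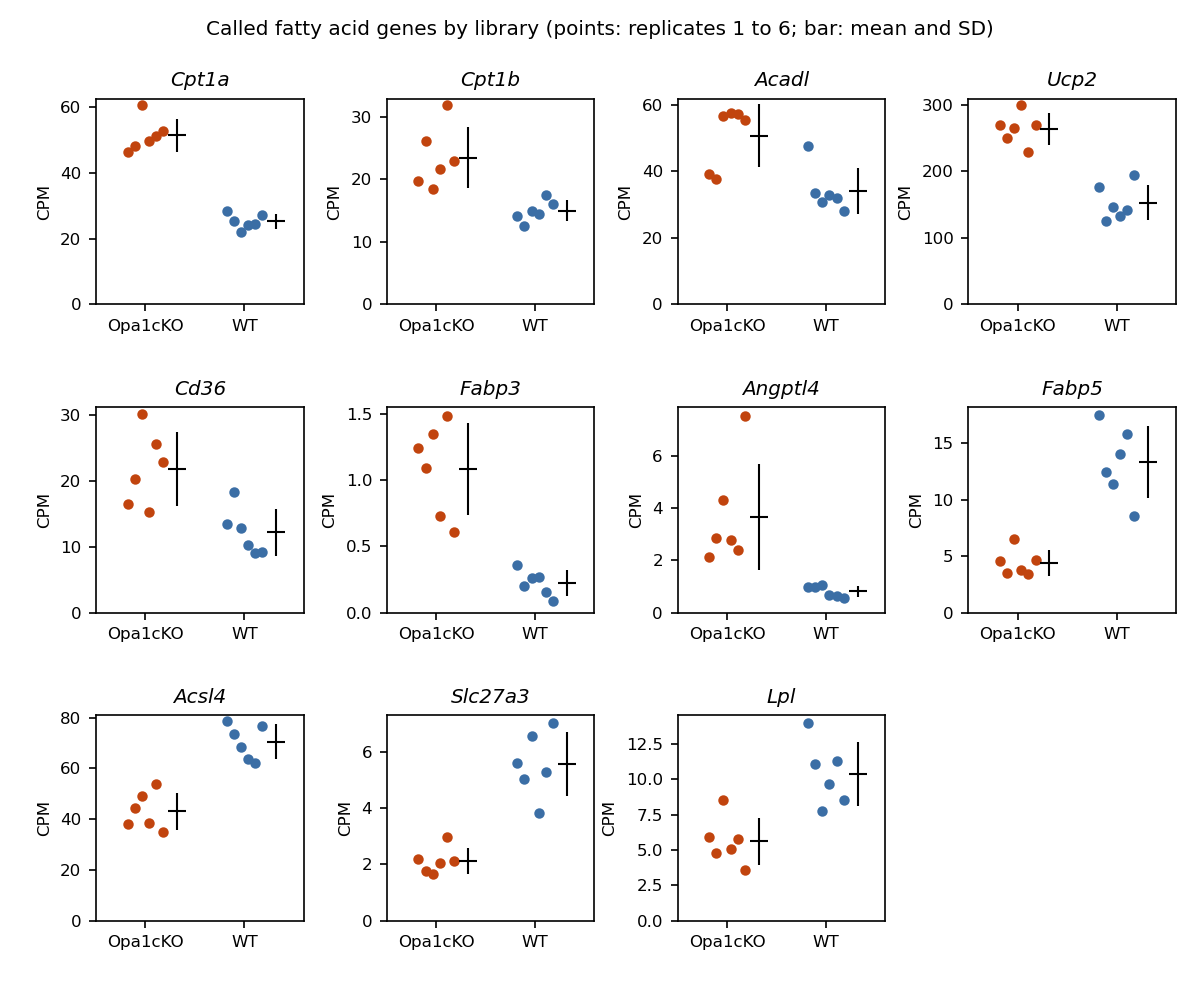
CPM of the 11 called fatty acid genes in each library, Opa1cKO left and WT right, with points for replicates 1 to 6 and a bar for the mean and SD; each vertical axis starts at 0. Cpt1a, Cpt1b, Ucp2, Fabp3, Angptl4, Fabp5, Acsl4 and Slc27a3 show no overlap between genotypes, whereas Acadl, Cd36 and Lpl do.

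Uptake and binding genes moved in opposite directions. Cd36, a membrane receptor that takes up long-chain fatty acids (chromosome 5, 17781690 to 17888801, minus strand), had 15.2, 21.5 and 30.1 CPM in Opa1cKO, against 8.98, 11.5 and 18.3 CPM in WT. Its ranges overlapped through WT 2, the highest WT library, and the log2 fold change was 1.00 (SE 0.191, edgeR adjusted p = 0.00532). Slc27a3, an acyl-CoA synthetase of the fatty acid transport protein family (chromosome 3, 90385239 to 90389938, minus strand), had 1.67, 2.09 and 2.96 CPM in Opa1cKO, against 3.83, 5.44 and 7.02 CPM in WT. It fell by 1.37 on the log2 scale (SE 0.193, edgeR adjusted p = 0.000774), with no overlap. The more abundant members of that family were not called. Slc27a1 had 47.9, 78.6 and 100.0 CPM in Opa1cKO, against 45.0, 69.1 and 86.3 CPM in WT (log2 fold change -0.02, edgeR adjusted p = 0.963), and Slc27a4 stood at -0.27 (SE 0.0861, edgeR adjusted p = 0.0605). Slc27a3 supplied 2.67 to 5.47% of the TPM of these 3 genes in Opa1cKO and 6.71 to 10.4% in WT.

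Promoters of Cpt1a, Cd36 and Slc27a3 are shown because these genes were called and their windows hold a searched motif. These windows run from 250 bases before to 50 after a RefSeq transcription start (GRCm38.p6), 5′ to 3′ along the gene's strand: chr19:3323051-3323350 (plus) for Cpt1a, chr5:17835847-17836146 (minus) for Cd36 and chr3:90389889-90390188 (minus) for Slc27a3. Capitals mark AGGTCA, the core that PPAR and other nuclear receptors bind, or ACGTG, the core of the hypoxia response element, each on either strand.
Cpt1a: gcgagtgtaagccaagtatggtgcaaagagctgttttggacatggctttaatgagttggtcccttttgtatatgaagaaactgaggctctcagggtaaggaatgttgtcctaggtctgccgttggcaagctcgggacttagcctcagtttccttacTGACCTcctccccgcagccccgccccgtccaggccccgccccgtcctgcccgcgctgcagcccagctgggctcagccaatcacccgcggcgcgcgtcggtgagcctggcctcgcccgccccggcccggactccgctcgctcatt
Cd36: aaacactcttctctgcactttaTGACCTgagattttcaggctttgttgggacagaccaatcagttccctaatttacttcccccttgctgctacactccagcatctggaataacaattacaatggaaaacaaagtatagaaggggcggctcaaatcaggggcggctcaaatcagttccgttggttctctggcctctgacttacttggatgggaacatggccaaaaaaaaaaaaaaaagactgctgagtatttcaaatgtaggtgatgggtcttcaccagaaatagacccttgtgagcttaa
Slc27a3: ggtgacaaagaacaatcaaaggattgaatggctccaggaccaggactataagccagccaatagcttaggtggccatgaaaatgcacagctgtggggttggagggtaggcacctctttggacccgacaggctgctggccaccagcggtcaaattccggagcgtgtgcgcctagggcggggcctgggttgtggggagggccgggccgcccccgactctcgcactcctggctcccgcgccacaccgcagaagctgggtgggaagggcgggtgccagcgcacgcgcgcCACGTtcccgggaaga
The marked run begins at position -94 in Cpt1a, -228 in Cd36 and 34 in Slc27a3, counted from the start as 0. RefSeq windows matched 41 of the 49 members, among them 7 of the 11 called genes. AGGTCA was in 2 of the 5 windows of risen genes and in neither window of fallen genes, against 26.5% of the 49 windows of members (some genes have several starts) and 16.3% of the 32851 windows in the table. ACGTG was in none of the 5 windows of risen genes and in 1 window of fallen genes, against 10.2% of the 49 windows of members and 19.6% of all windows. The direct repeat of the AGGTCA core with 1 base between the copies was in no member's window and in 0.0396% of all windows. A match here is a description of the letters and not a bound site.

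Fabp3 and Fabp5, which ferry fatty acids through the cytosol, moved in opposite directions. Fabp3, the heart and muscle form (chromosome 4, 130308595 to 130315463, plus strand), had 0.609, 1.17 and 1.48 CPM in Opa1cKO, against 0.0836, 0.230 and 0.360 CPM in WT. Every Opa1cKO library was above every WT library, by 2.48 on the log2 scale (SE 0.392, edgeR adjusted p = 0.00158), on 304 reads summed over the Opa1cKO libraries and 64 over the WT libraries. Fabp3 overlaps Zcchc17, a gene on the opposite strand, by 81 bases. Fabp5, the epidermal form (chromosome 3, 10012548 to 10016607, plus strand), went the other way, with 3.44, 4.19 and 6.54 CPM in Opa1cKO, against 8.59, 13.3 and 17.5 CPM in WT. It fell by 1.58 on the log2 scale (SE 0.214, edgeR adjusted p = 0.000541) with no overlap. Fabp7, the brain form, is not among the 49 genes but was the most abundant binding protein gene by median share, at 52.7 to 70.0% of the TPM of Fabp3, Fabp4, Fabp5 and Fabp7 in Opa1cKO and 43.1 to 61.6% in WT. It was not called (log2 fold change -0.02, edgeR adjusted p = 0.967). Of these 4 genes Fabp3 made up 10.4 to 29.8% in Opa1cKO and 1.54 to 4.29% in WT, and Fabp5 15.9 to 24.1% in Opa1cKO and 36.5 to 54.2% in WT, each with no overlap. Their sum overlapped, at 20.1 to 48.6 TPM in Opa1cKO and 29.7 to 48.5 TPM in WT. Fabp4, the adipocyte form, was below the filter, with 55 reads in all Opa1cKO libraries and 21 in all WT libraries.

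**Figure D3:**
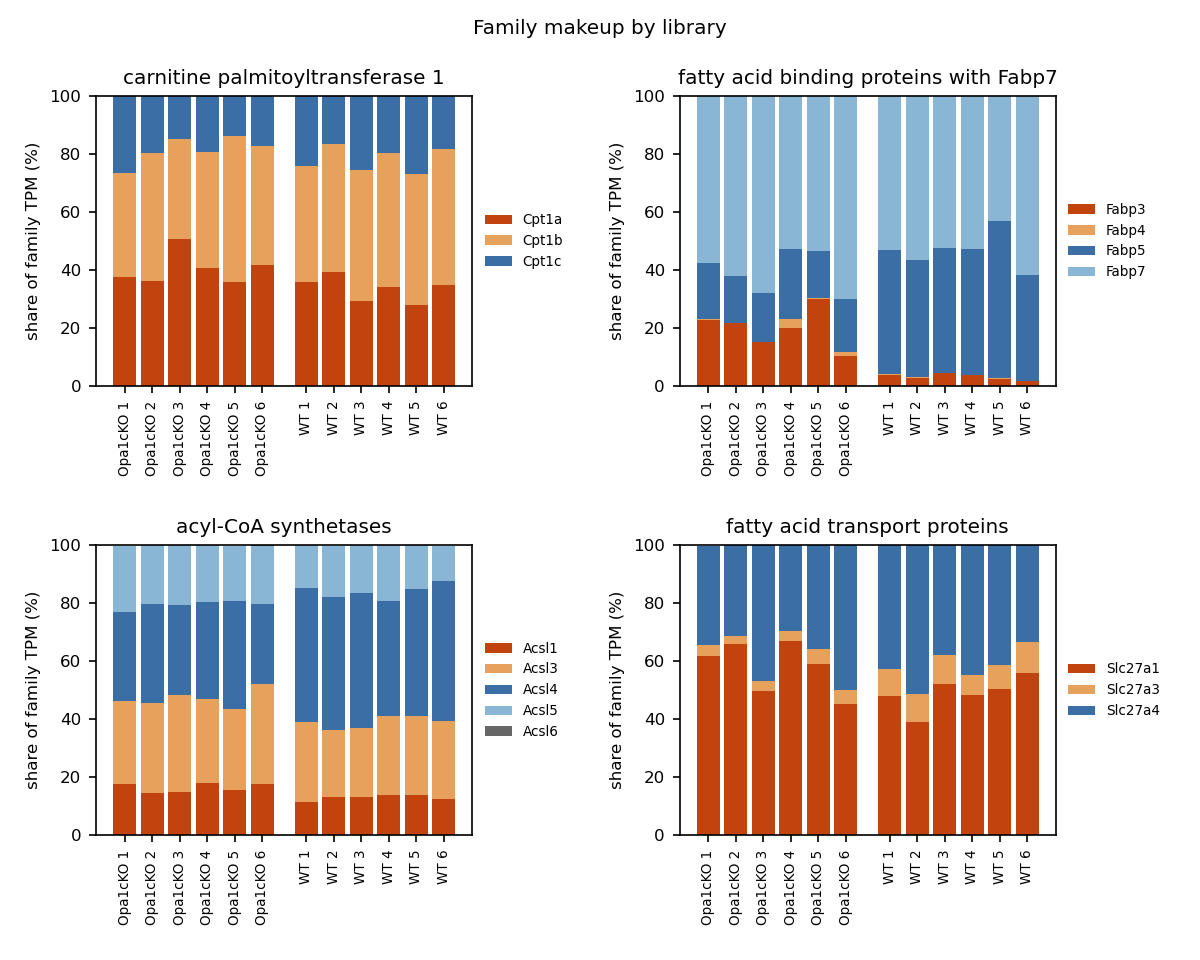
Share of the summed TPM held by each gene drawn, in percent, in each Opa1cKO library (left) and each WT library (right), for CPT1, fatty acid binding proteins including Fabp7, long-chain acyl-CoA synthetases and 3 fatty acid transport proteins. Fabp3 takes 10.4 to 29.8% of the binding proteins drawn in Opa1cKO and 1.54 to 4.29% in WT, while the CPT1 makeup overlaps between genotypes.

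Of the 4 tested genes of the long-chain acyl-CoA synthetase (Acsl) family, Acsl4 was called. Acsl4, which favours arachidonic and other polyunsaturated fatty acids (chromosome X, 142317993 to 142390535, minus strand), had 34.8, 41.4 and 53.8 CPM in Opa1cKO, against 62.1, 70.9 and 78.7 CPM in WT. It fell by 0.70 on the log2 scale (SE 0.117, edgeR adjusted p = 0.00235), and its ranges did not overlap. By TPM it held 27.7 to 37.1% of the family in Opa1cKO and 39.7 to 48.4% in WT. The shares of Acsl1, Acsl3 and Acsl5 were higher in every Opa1cKO library, but a share goes up whenever another member goes down: their own log2 fold changes were 0.12, 0.02 and 0.21 (edgeR adjusted p = 0.356, 0.937 and 0.308). Acsl6 was below the filter, with 14 reads over the Opa1cKO libraries and 8 over the WT libraries.

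Lipoprotein lipase and its secreted inhibitor also went apart. Angptl4, which inactivates lipoprotein lipase and is a known PPAR target (chromosome 17, 33773750 to 33781830, minus strand), had 2.14, 2.81 and 7.51 CPM in Opa1cKO, against 0.544, 0.815 and 1.06 CPM in WT. All Opa1cKO libraries lay above all WT libraries, and the log2 fold change was 2.39 (SE 0.295, edgeR adjusted p = 0.000249). The highest value was that of Opa1cKO 6, without which the log2 fold change was 1.99 (edgeR adjusted p = 0.00228). Lpl, which releases fatty acids from circulating triglyceride (chromosome 8, 68880491 to 68907448, plus strand), had 3.58, 5.42 and 8.56 CPM in Opa1cKO, against 7.72, 10.4 and 14.0 CPM in WT. These ranges overlapped through Opa1cKO 3. Lpl fell by 0.94 on the log2 scale (SE 0.216, edgeR adjusted p = 0.0140), and without Opa1cKO 6 it stood at -0.77 and did not pass (edgeR adjusted p = 0.0542).

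Several of these genes are also expressed by adipocytes, muscle, macrophages and endothelium, so markers of those cells were read in the same libraries. Adipoq, which defines adipocytes, was at no more than 0.141 CPM in Opa1cKO and 0.0836 CPM in WT, and 1 of 8 adipocyte markers passed the filter and was not called. The 8 summed to 5.36 to 11.6 CPM in Opa1cKO and 5.07 to 12.2 CPM in WT. Of 11 skeletal muscle markers 8 were tested, with 0 called by edgeR, DESeq2 or limma-voom and 0 at an unadjusted edgeR p below 0.05, and all 11 summed to 3.13 to 44.6 CPM in Opa1cKO (median 17.8) and 3.25 to 48.3 CPM in WT (median 8.16). The library with the lowest muscle sum among Opa1cKO, Opa1cKO 3, had 1.35 CPM of Fabp3 and 18.4 CPM of Cpt1b. The library with the highest among WT, WT 5, had 0.152 CPM of Fabp3 and 17.5 CPM of Cpt1b. These Cpt1b values were the lowest among Opa1cKO and the highest among WT libraries, whereas those of Fabp3 lay inside its ranges. The part of muscle in the values of Fabp3 and Cpt1b was not tested. Endothelial markers summed to 6.38 to 11.3 CPM in Opa1cKO and 4.42 to 9.52 CPM in WT, and of 3 tested out of 10, edgeR and DESeq2 called 0, limma-voom called 1, and 1 had an unadjusted edgeR p below 0.05. Macrophage markers moved with genotype, and their part in the values of Cd36, Lpl, Fabp5 and Angptl4 was not tested. Of 5 tested out of 12, Cd68 rose by 1.28 and Csf1r and Cd163 fell by 0.88 and 3.98 on the log2 scale (edgeR adjusted p below 0.05 for each), and the list summed to 97.3 to 117 CPM in Opa1cKO and 105 to 198 CPM in WT. Adgre1, C1qa, C1qb and C1qc did not exceed 0.118 CPM in Opa1cKO and 0.217 CPM in WT. Of 6 osteoclast markers 3 were tested and 1 was called, Atp6v0d2, which rose (log2 fold change 3.98, edgeR adjusted p = 0.00439). The other tested genes, Ctsk and Mmp9, stood at 0.10 and 0.05 (edgeR adjusted p = 0.547 and 0.976). The osteoclast list summed to 50.7 to 72.1 CPM in Opa1cKO and 50.8 to 62.6 CPM in WT. Of 6 osteoblast markers 2 were tested and 1 was called, Phex, which fell (-1.47, edgeR adjusted p = 0.01). The osteoblast list summed to 1.26 to 2.39 CPM in Opa1cKO and 2.34 to 7.59 CPM in WT. Opa1cKO 6, the library with the most Angptl4, also had the most Atp6v0d2 (6.51 CPM) and the most of the end plate cartilage genes Col10a1 (19.1 CPM) and Matn3 (6.02 CPM). No other library exceeded 1.44, 5.49 and 1.15 CPM of these 3 genes, and their part in the value of Angptl4 was not tested. Of 6 end plate cartilage markers 5 were tested, edgeR called 0, and 1 had an unadjusted edgeR p below 0.05. All 6 summed to 113 CPM in Opa1cKO 6, 80.4 CPM in Opa1cKO 3 and 74.4 CPM in WT 3. The median sum was 36.0 CPM in Opa1cKO and 36.2 CPM in WT.

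Of the 14 beta-oxidation genes 1 was called, close to the share of 10.2% called among all genes. Acadl, the long-chain acyl-CoA dehydrogenase (chromosome 1, 66830839 to 66863277, minus strand), had 37.8, 56.0 and 57.6 CPM in Opa1cKO, against 28.0, 32.4 and 47.5 CPM in WT. Opa1cKO 1 and Opa1cKO 2 were low, at 39.3 and 37.8 CPM, the other 4 Opa1cKO libraries were at 55.4 CPM or more, and the ranges overlapped through WT 1. The log2 fold change was 0.66 (SE 0.140, edgeR adjusted p = 0.00977). Its TPM averaged 116 ± 20.5 in Opa1cKO and 77.1 ± 12.9 in WT (SD, n = 6 each), which put it at rank 2 in Opa1cKO and rank 9 in WT among the 49 genes.

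The other 13 genes of the spiral were not called, with log2 fold changes from -0.30 to 0.21 and edgeR adjusted p from 0.137 to 0.889. Eci1, Acadm, Acadsb and Acadvl had an unadjusted edgeR p below 0.05 (0.0272, 0.0284, 0.0439 and 0.0453). Of the 14 together 12 lay below 0, with a median of -0.14, and 48.1% of all genes tested lay below 0. Acaa2, the thiolase of the last step and the most abundant uncalled gene of the group, had 29.5, 37.0 and 45.3 CPM in Opa1cKO, against 34.0, 39.7 and 48.2 CPM in WT. Its ranges overlapped (log2 fold change -0.13, edgeR adjusted p = 0.587). The dehydrogenases of other chain lengths stood at 0.21 (Acadvl, very long), -0.22 (Acadm, medium) and -0.07 (Acads, short), and Acadsb, which handles short branched chains from isoleucine, at -0.19. Hadha and Hadhb, the subunits of the trifunctional protein, stood at -0.15 and -0.14. Hadh, Echs1, Eci2, Decr1 and Hsd17b10, which act on later intermediates, unsaturated chains or isoleucine, lay between -0.27 and -0.05. The lowest value was that of the enoyl-CoA isomerase gene Eci1, at -0.30 (SE 0.123, edgeR adjusted p = 0.137). Summed over the 14 genes the level was 760 to 878 TPM in Opa1cKO and 769 to 928 TPM in WT.

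**Figure D4:**
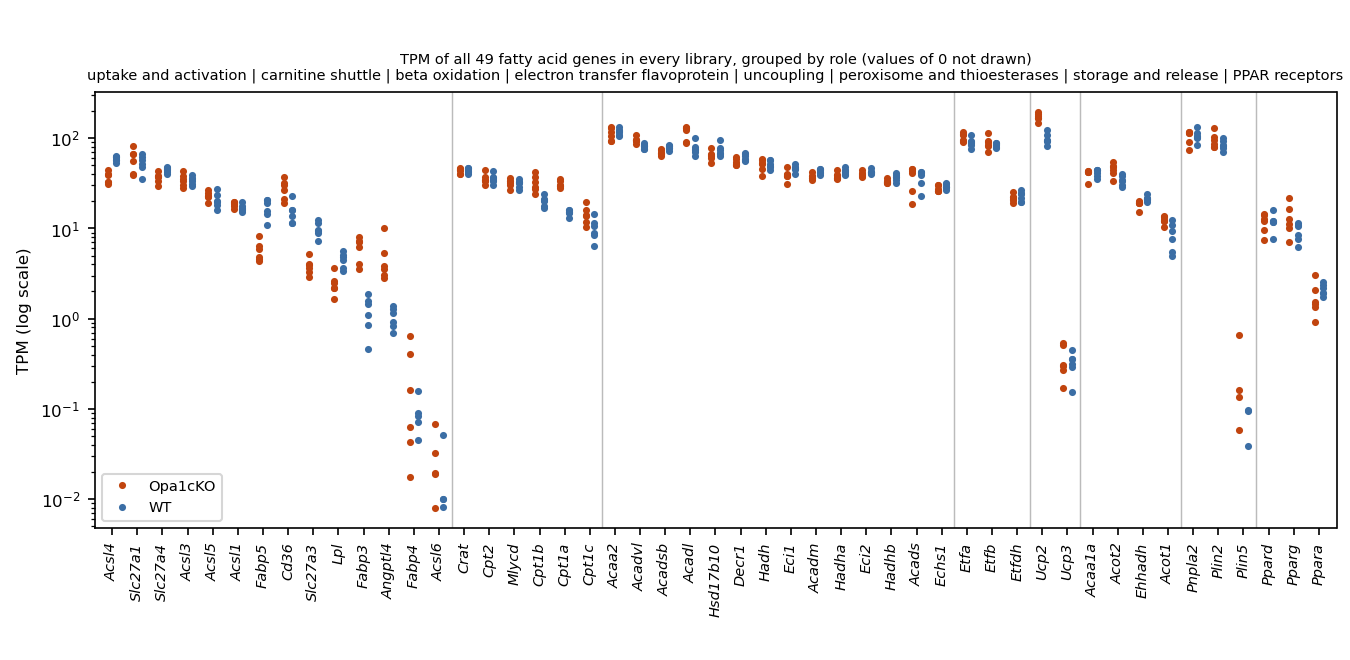
TPM of all 49 fatty acid genes in every library, on a log axis, ordered by role and then by WT mean, with Opa1cKO points left of WT points; values of 0 are not drawn. Ucp2 and Acadl have the highest Opa1cKO means, 174 and 116 TPM, and Fabp4, Acsl6, Ucp3 and Plin5 lie below 1 TPM in every library.

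Electron transfer flavoprotein, which takes electrons from the dehydrogenases, showed no call. Etfa had 35.4, 41.4 and 45.8 CPM in Opa1cKO, against 31.3, 34.8 and 46.7 CPM in WT, a difference of 0.21 on the log2 scale (SE 0.108, edgeR adjusted p = 0.241). Its partner subunit gene Etfb and the oxidoreductase gene Etfdh stood at 0.06 and -0.01. Ucp2, a carrier of the inner mitochondrial membrane related to the uncoupling protein of brown fat (chromosome 7, 100493337 to 100502020, plus strand), had 229, 267 and 300.0 CPM in Opa1cKO, against 126, 144 and 194 CPM in WT. It rose by 0.73 on the log2 scale (SE 0.110, edgeR adjusted p = 0.00117) with no overlap, and was the most abundant of the 49 genes in Opa1cKO, at 174 ± 16.6 TPM, against 99.5 ± 15.2 TPM in WT, where it was at rank 3 (SD, n = 6 each). Dnajb13, on the opposite strand, overlaps Ucp2 by 305 bases and had 166 reads over the Opa1cKO libraries and 837 over the WT libraries, against 73353 and 44062 reads of Ucp2. Ucp3, the neighbouring muscle form, was below the filter, with 0.118 to 0.367 CPM in Opa1cKO and 0.114 to 0.310 CPM in WT.

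Lipid droplet genes of the list were not called. Pnpla2, the triglyceride lipase that opens droplet stores, had 47.0, 74.7 and 79.2 CPM in Opa1cKO, against 55.6, 68.3 and 88.5 CPM in WT (log2 fold change -0.11, edgeR adjusted p = 0.685). Plin2, the coat protein gene of droplets, stood at 0.15 on the log2 scale (SE 0.144, edgeR adjusted p = 0.549). Plin5, the coat protein of oxidative tissues, had 20 reads over the Opa1cKO libraries and 5 over the WT libraries. Among the peroxisomal and thioesterase genes, the thiolase gene Acaa1a had 30.5, 40.6 and 41.2 CPM in Opa1cKO, against 34.4, 41.3 and 46.4 CPM in WT (log2 fold change -0.06, edgeR adjusted p = 0.784). Ehhadh, a bifunctional peroxisomal enzyme gene, stood at -0.21 (edgeR adjusted p = 0.232). The thioesterase genes Acot1 and Acot2, near-identical neighbours whose reads can be split between them, stood at 0.41 and 0.30 (edgeR adjusted p = 0.206 and 0.148).

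PPAR receptor genes were not called either. Ppard, the most abundant of the 3 over both genotypes, had 12.5, 19.9 and 23.3 CPM in Opa1cKO, against 12.6, 19.7 and 26.2 CPM in WT (log2 fold change -0.07, edgeR adjusted p = 0.867). Pparg, the receptor of adipocytes and macrophages, had 4.71 to 13.2 CPM in Opa1cKO and 4.03 to 7.45 CPM in WT, a difference of 0.57 on the log2 scale (SE 0.244, edgeR adjusted p = 0.162). It passed without Opa1cKO 5, at 0.79 (edgeR adjusted p = 0.0208). Ppara, the receptor that governs fatty acid oxidation in liver, was low, at 0.755 to 2.41 CPM in Opa1cKO and 1.37 to 2.17 CPM in WT (log2 difference -0.25, edgeR adjusted p = 0.599).

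Other genes of the pathway, listed with the members but not among them, were called higher in 8 cases and lower in 7 of 105 tested, or 14.3%, against 10.2% of all genes. In triglyceride storage and release 2 of 22 rose and 2 fell. The droplet coat gene Plin4 had 119, 166 and 246 CPM in Opa1cKO, against 67.3, 80.3 and 102 CPM in WT (log2 fold change 1.07, edgeR adjusted p = 0.00329), and the monoglyceride lipase gene Mgll rose by 0.36. Hilpda, a hypoxia-induced inhibitor of the Pnpla2 lipase, fell by 0.74 (edgeR adjusted p = 0.00219), and the acyltransferase gene Agpat3 fell by 0.46.

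Of 10 tested genes of uptake 1 fell, the lipoprotein receptor gene Vldlr, with 97.3, 102 and 119 CPM in Opa1cKO, against 191, 223 and 245 CPM in WT. Of 8 tested genes of carnitine supply and malonyl-CoA edgeR called 0, DESeq2 and limma-voom called 1 each, and 2 had an unadjusted edgeR p below 0.05. In matrix oxidation and ketone metabolism 1 of 22 rose, Bdh1 of ketone bodies (1.59), and 2 fell, Mmut of propionate (-0.48) and Ivd of leucine (-0.38). Peroxisomal Acox2 (1.58) and Acot5 (3.44) rose among 19 tested, Acot5 from a family of near-identical copies and at no more than 0.777 CPM. Among regulators and PPAR targets 3 of 24 rose and 2 fell. Pdk4, which restrains glucose oxidation, had 35.3, 37.4 and 46.9 CPM in Opa1cKO, against 17.4, 22.8 and 28.1 CPM in WT, with no overlap. The coactivator gene Ppargc1b rose by 1.48 and the AMP-activated kinase subunit gene Prkag2 by 0.51, while Foxo1, a starvation-response factor, fell by 0.58. The corepressor gene Nrip1, named after its value was seen, fell by 0.45.

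The called members were set beside the sex labels that reads contradict. Without those 4 libraries, where the genotype term rests on Opa1cKO 5 and 6 against WT 1 to 3, all 11 kept their direction, and Cpt1a (1.04), Cpt1b (0.98), Angptl4 (2.29) and Fabp5 (-1.76) still passed. Cd36 then stood at 0.71, Fabp3 at 1.92, Acadl at 0.60, Ucp2 at 0.73, Acsl4 at -0.73, Slc27a3 at -1.17 and Lpl at -1.22 (edgeR adjusted p = 0.166, 0.0768, 0.175, 0.0506, 0.0831, 0.0627 and 0.104). In Xist-positive libraries alone, Opa1cKO 4 to 6 against WT 1, 2, 3, 5 and 6, all but Cd36 passed (0.76, edgeR adjusted p = 0.0864). With sex as the reads show it in place of the label, all 11 passed. Within the labels, Cpt1a was at 1.07 in labelled females and 0.99 in labelled males and passed in each, as did Ucp2, Angptl4 and Fabp5. Ucp2 lay close to the threshold in both (edgeR adjusted p = 0.0494 in labelled females and 0.0488 in labelled males). Fabp5 did so in labelled males (edgeR adjusted p = 0.04998). The labelled-male WT libraries, WT 5 and WT 6, were female by the reads, as was Opa1cKO 4, while Opa1cKO 1 to 3 were male. The labelled-male fit thus held no WT library that was male by the reads. It had no term for sex, so genotype and sex by the reads were partly confounded in it. Cd36 (0.83 in labelled females, 1.18 in labelled males), Acadl (0.65 and 0.68) and Lpl (-1.18 and -0.70) passed in neither. Fabp3 (1.93 in labelled females, 3.22 in labelled males), Acsl4 (-0.68 and -0.70) and Slc27a3 (-1.04 and -1.67) passed in labelled males and not in labelled females. Cpt1b was at 0.97 in labelled females and 0.37 in labelled males, where it did not pass (edgeR adjusted p = 0.323). Differences between the labelled sexes were not tested.

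**Figure D5:**
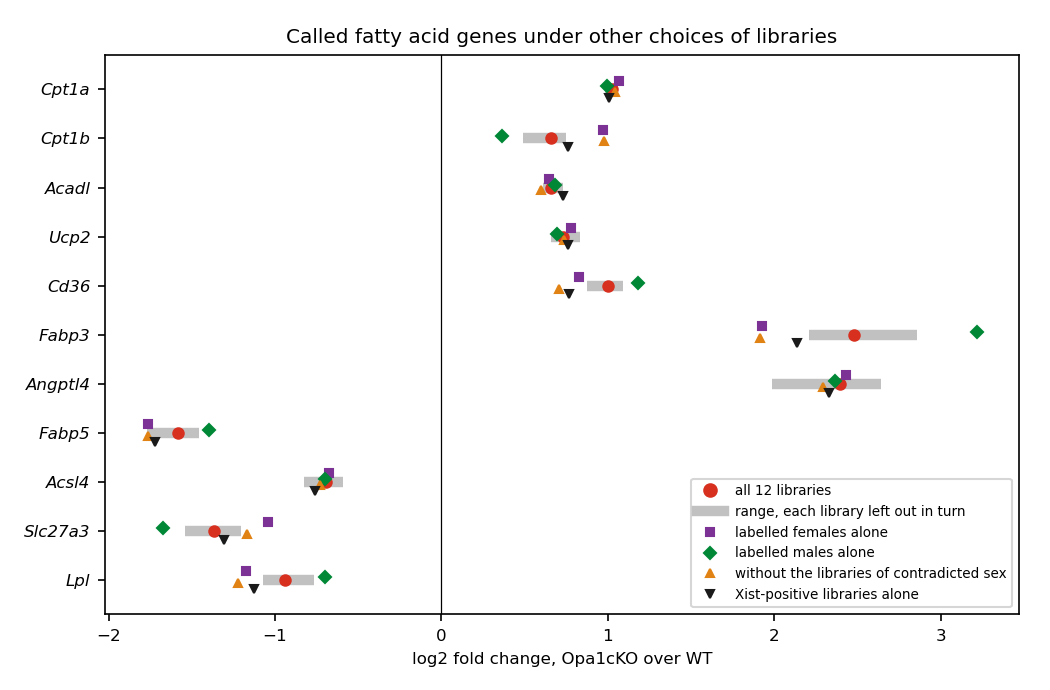
Log2 fold change of the 11 called fatty acid genes, Opa1cKO over WT, with all 12 libraries (red), with each library left out in turn (grey range), in each labelled sex, without the 4 libraries of contradicted sex and in Xist-positive libraries alone. Every value drawn keeps its side of 0; Cpt1a runs from 0.98 to 1.07 and Fabp3 from 1.92 to 3.22.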

How the data were processed

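Whole-number read counts per gene, as deposited, came from 12 libraries of 1 mouse each. STAR 2.7.11b and mm10 are named in the submitters' processing notes. Counter, annotation and strand setting were not given in the sources used here. TPM values, also deposited by the authors, were used to compare levels between genes and as an alternative unit. Counts were tested with edgeR 4.0.16 in R 4.3.3: TMM factors, filterByExpr by genotype (minimum count 10), a quasi-likelihood model (robust) with terms for labelled sex and genotype, and Benjamini-Hochberg correction across all 15229 genes tested. A call is an adjusted p below 0.05. PCR copies cannot be told from molecules. Gene positions come from GENCODE M21 (32235 of 32285 identifiers matched), promoters from RefSeq.

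The members and lists were chosen with earlier results of these data known. Lowest, median and highest CPM are given for called members and for the most abundant uncalled member of each role (for Ucp3 the range alone). Up to 4 called genes, by p, are named from each pathway list. Alternatives were the sex term, a replicate block, DESeq2 1.42.0, limma 3.58.1 (voom with quality weights, and log2 TPM with pseudocounts of 1 and 0.1), scalings, filters, thresholds and subsets of libraries; Xist-positive libraries alone were added after the data were seen.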

Additional observations from a re-analysis of the deposited data

Results flagged for a closer look

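A single library stood apart from the other 5 of its genotype (Dixon's test) in 10 of the 90 groups checked, where chance flags about 1 in 20 groups. Opa1cKO 3 was the library in 5 of them. It had the highest CPM of its genotype for Plin2 (102, the others 61.9 to 74.6), Cpt2 (24.1, the others 16.0 to 18.4), Acadm (37.1, the others 29.0 to 31.9) and Etfdh (42.5, the others 32.1 to 35.9), and the lowest for Acaa1a (30.5, the others 38.2 to 41.2). WT 1 had the highest CPM among WT for Acadl (47.5, the others 28.0 to 33.4), Hsd17b10 (29.2, the others 18.2 to 21.9) and Eci2 (61.7, the others 48.9 to 51.7). Opa1cKO 2 was low for Ehhadh (9.65, the others 12.5 to 13.3), and WT 6 was low for Slc27a4 (38.9, the others 43.1 to 44.8). Of these genes Acadl alone was called, and without WT 1 it stood at 0.73 (edgeR adjusted p = 0.00391).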

How the results depend on the processing

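Of the 11 called members, 10 passed with any 1 library left out, the exception being Lpl (-0.77, adjusted p = 0.0542, without Opa1cKO 6). No called member changed sign in 30 alternatives (29 for Fabp3, untested at a mean of 1 CPM or more), and 14 uncalled members had values on both sides of 0. The thresholds of 0.01 and 0.1 are among these alternatives but reuse the main fit, so no sign could change there. With 1 library left out, members called higher ran from 7 to 8, members called lower from 3 to 6 and genes called from 819 to 1995. Genes called were 325 without the 4 libraries of contradicted sex, 300 in labelled females, 419 in labelled males, 2349 with DESeq2, 554 at an adjusted p below 0.01 and 2473 below 0.1. Members called higher were 3 without the 4 libraries and 4 in each labelled sex, and members called lower were 1 without the 4 libraries, 1 in labelled females and 3 in labelled males; these fits hold fewer libraries. The replicate block left 769 genes called, 6 members higher and 4 lower, Acadl not passing (0.66, adjusted p = 0.0573), but replicate numbers share no animal and same-numbered libraries had correlations of deviations from -0.217 to 0.043, so the block does not pair them. Slc27a4 (-0.27) passed with genotype alone, sex from reads, DESeq2, limma-voom and without Opa1cKO 3, and Eci1 (-0.36) without Opa1cKO 3. Across scalings the median over all genes ran from 0.01 to 0.02 on the log2 scale. Low counts limit Fabp3, Fabp4, Acsl6, Ucp3 and Plin5.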
